A study of Mus musculus with 16 samples.

Results

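The comparison described here sets mouse liver 3 days after partial hepatectomy, the surgical removal of part of the liver, against liver resected at day 0. Its members are the 5 day 3 samples and the 5 day 0 samples whose titles name the surgery and the day, 10 of the 16 samples of the series. All 10 came from whole liver of male wild-type C57BL/6J mice, snap-frozen before RNA extraction, and no gene was altered in either group. The day 0 liver is labelled as the resected baseline control, and the day 3 liver came from mice killed 3 days after surgery. Age, the share of liver removed and the hour of collection are not given in the labels, and liver of sham-operated mice was not analysed here, so the loss of tissue, the operation itself and the passing of 3 days cannot be told apart. The labels do not say which samples came from the same animal, so each p-value reflects sample spread alone, which may be technical in part.

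The liver is among the few adult organs that regrow after part of it is removed. Hepatocytes, most of which rest outside the cell cycle, re-enter it in the remaining lobes, copy their DNA and divide, while endothelial and stellate cells follow and rebuild the sinusoids and their matrix. Hepatocytes at the same time carry the metabolic and secretory work of the organ, which includes bile acid synthesis, detoxification by cytochrome P450 enzymes, the plasma proteins and, in male mice, the major urinary proteins. The series title places the surgery in a study of liver lipids during proliferation.

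Polyadenylated RNA was sequenced, and reads per gene were counted by the authors. Levels below are CPM, counts scaled to the depth of each library with TMM factors, which correct for differences in composition between libraries. They are listed for replicates 12, 13, 14, 15 and 16 in that order. Changes are log2 fold changes of day 3 over day 0 with their standard error, from the quasi-likelihood test of edgeR on the 10 samples, with n = 5 in each group. Genes said to rise or fall had a Benjamini-Hochberg adjusted p under 0.05 over the 10546 genes tested. Total counts per sample were 3271398 to 8647503 at day 0 and 2795909 to 4391002 at day 3, and day 0 library 12 was the deepest. Alb, the serum albumin of hepatocytes, read 46895 to 62451 CPM at day 0 and 85081 to 99217 CPM at day 3. Pairs of libraries of the same day correlated at 0.959 to 0.974 across genes and pairs of different days at 0.920 to 0.947, which describes genes within these libraries. The sequencing index differed between the days, so index and day cannot be told apart.

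Day 3 libraries 12 and 14 held transcripts of skeletal muscle. The genes summed here for muscle, fat and mesothelium were chosen after the counts were seen, so the sums are a description. The summed level of 16 muscle genes was 4388 CPM in day 3 library 12 and 380.0 CPM in day 3 library 14, against 7.06 to 24.2 CPM in the other 3 day 3 libraries and 17.5 to 29.2 CPM at day 0. Acta1, the actin of skeletal muscle, had 3730 and 214 counts in those libraries and 0 counts in every day 0 library. Day 3 library 12 also held 4 fat cell genes at a summed 38.2 CPM, against 0 to 1.55 CPM in the other 9 libraries. Genes of mesothelium, the cell layer that covers the liver and lines the abdomen, stood higher in all 5 day 3 libraries, at a summed 31.2, 7.91, 31.0, 11.4 and 7.06 CPM against 0.450 to 2.09 CPM at day 0. Msln, a surface protein of mesothelial cells, had 2 counts at day 0 and 131 at day 3, a ratio of 80.0 with a 95% counting interval of 21.7 to 668. Some counts that rest on all 10 samples are therefore also given for the 8 samples without day 3 libraries 12 and 14. Counts given without that comparison can differ there. Falls in the urea cycle and amino acid list, for example, numbered 9 instead of 12, and those in coagulation and complement 8 instead of 11. Of 253 called genes that could be named, 54 lost the call in those 8 samples, Cyp2d22, Igfbp4, Inhbe, Topbp1 and Pdgfra among them. The part of these other tissues in any result was not tested beyond that.

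Of 10546 genes tested, 1026 rose (9.73%) and 845 fell (8.01%), so 17.7% differed between day 3 and day 0. At a change of at least 2-fold, 419 genes had risen (3.97%) and 162 had fallen (1.54%). In 750 genes every day 3 sample lay above every day 0 sample (7.11%), and in 648 every day 3 sample lay below (6.14%). Without day 3 libraries 12 and 14, 837 genes rose and 647 fell, and 1326 of the 1871 calls were shared. The gene lists described next are to be read against these shares, and each list's median against the -0.01 of all genes tested. The balance of the directions depended on the scaling. With total counts in place of TMM factors 1596 genes rose and 446 fell, so that rises made up 78.2% of calls instead of 54.8%, and the median change of all genes moved by 0.13 on the log2 scale.

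**Figure D1:**
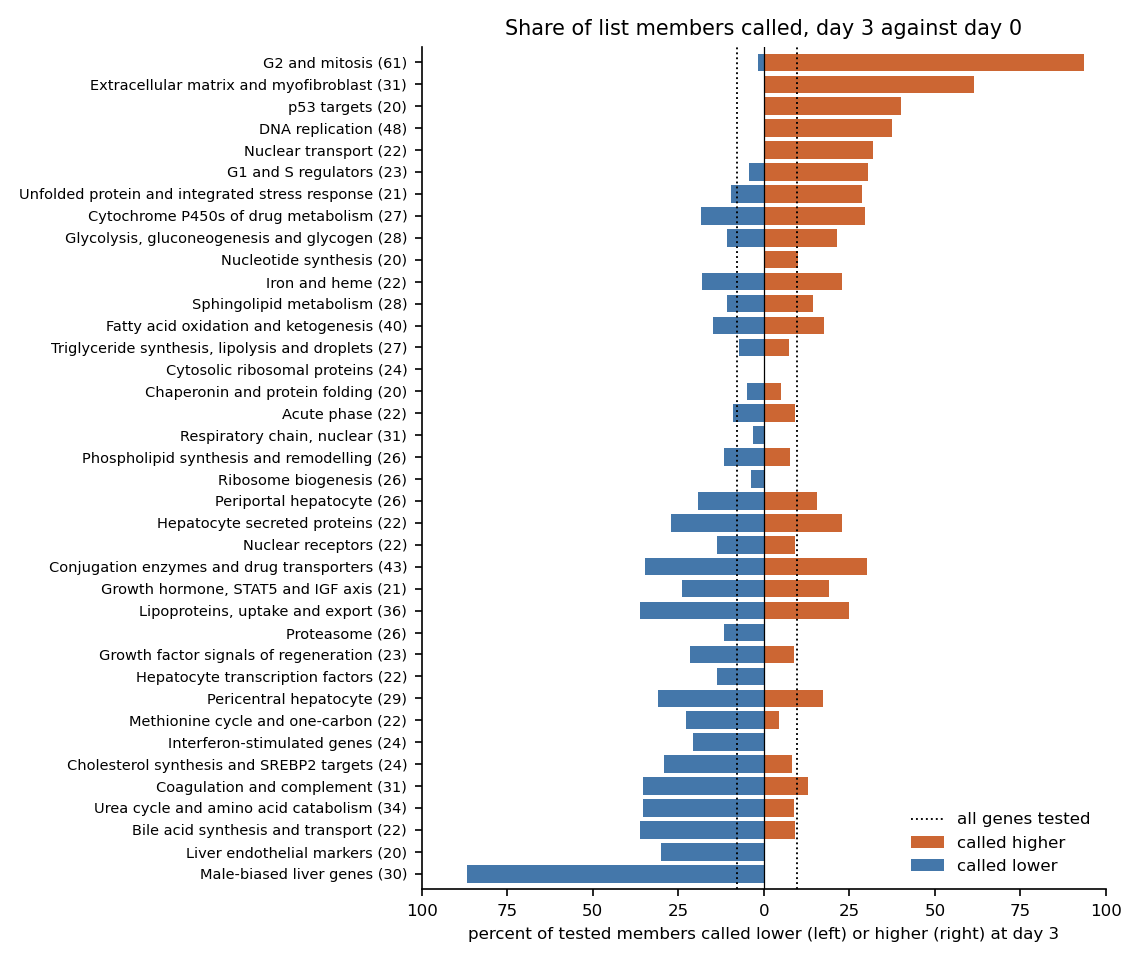
Percent of tested members called higher (to the right) and lower (to the left) at day 3 in each gene list with at least 20 tested members, with dotted lines at the 9.73% and 8.01% of all genes tested. The mitosis and matrix lists reach farthest to the right and the male-biased list farthest to the left.

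The 10 largest rises among genes with a mean of at least 5 CPM and separate groups were Slpi, Cdkn3, Hmmr, Cenpe, Gsta1, Iqgap3, Gm3776, Ube2c, Prc1 and Mki67. Separate groups were required of these rises and of the falls below, so their lack of overlap follows from the choice, here and later. Cdkn3, Hmmr, Cenpe, Ube2c, Prc1 and Mki67 act in cell division, and Slpi is a secreted protease inhibitor. Slpi read 0.257, 0.243, 0, 0 and 0.336 CPM at day 0 and 37.3, 8.42, 24.5, 9.77 and 17.8 CPM at day 3 (log2 fold change 6.60 ± 0.66, edgeR adjusted p = 8.9e-06). It was highest in day 3 libraries 12 and 14, those with muscle transcripts, and its log2 fold change without them was 5.89. Gsta1 and Gm3776 belong to the alpha class of glutathione S-transferases, whose members share sequence, so their separate values are uncertain. Gsta1 read 0.386, 0.974, 0.523, 0.225 and 2.35 CPM at day 0 and 52.9, 31.9, 5.58, 10.7 and 50.8 CPM at day 3 (log2 fold change 5.28 ± 0.90, edgeR adjusted p = 0.0043). Within day 3 it split into high libraries 12, 13 and 16 and low libraries 14 and 15. Genes tested had passed a filter on low counts with a minimum of 2.53 CPM. Slpi and Gsta1 reached that level in no day 0 library and so entered the test only through day 3.

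The 10 largest falls were Hsd3b4, Gm4956, Mup-ps4, Ces4a, Hsd3b5, Gm31583, Serpina4-ps1, Arrdc3, Mup-ps7 and Mup17. Hsd3b4 and Hsd3b5, steroid dehydrogenases of male liver, are close paralogs, and Mup-ps4, Mup-ps7 and Mup17 belong to the major urinary protein cluster, so reads shared among them were not counted and their values are uncertain. Ces4a, a carboxylesterase, read 8.997, 9.49, 7.06, 9.44 and 11.4 CPM at day 0 and 1.13, 1.02, 0.310, 1.14 and 0.673 CPM at day 3 (log2 fold change -3.34 ± 0.36, edgeR adjusted p = 3.6e-07). Arrdc3, an arrestin-like adaptor, read 126, 398, 219, 280.1 and 299.5 CPM at day 0 and 52.0, 76.0, 48.4, 13.4 and 43.0 CPM at day 3 (log2 fold change -2.50 ± 0.46, edgeR adjusted p = 0.0064). Both genes were chosen by the same rule as the rises, which required separate groups.

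Transcripts of mitosis were far higher at day 3 in every library, with Mki67, the proliferation antigen that coats mitotic chromosomes, 29.3-fold higher and Cdk1, the kinase that drives entry into mitosis, 28.7-fold higher. Mki67 (chromosome 7, 135689784 to 135716361, minus strand of GRCm38) read 1.29, 0.243, 1.31, 5.17 and 1.34 CPM at day 0 and 33.5, 44.1, 51.2, 85.0 and 64.2 CPM at day 3 (log2 fold change 4.87 ± 0.50, edgeR adjusted p = 0.00013). Day 0 library 15 stood above the other day 0 libraries, and without it the log2 fold change was 5.66. Cdk1 (chromosome 10, 69335146 to 69352938, minus strand) read 1.54, 0.243, 1.83, 0.450 and 0.336 CPM at day 0 and 17.2, 23.7, 33.2, 39.1 and 30.9 CPM at day 3 (log2 fold change 4.84 ± 0.35, edgeR adjusted p = 1.1e-08). In both genes day 3 library 12 was the lowest and library 15 the highest of day 3, and no day 3 library came near the day 0 range. In bulk samples, more dividing cells and more of these transcripts per dividing cell cannot be told apart.

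The cyclins of G2 and mitosis were higher too. Ccna2, cyclin A2, read 1.41, 0.974, 3.66, 1.57 and 1.68 CPM at day 0 and 22.4, 22.4, 27.3, 36.4 and 24.2 CPM at day 3 (log2 fold change 3.86 ± 0.27, edgeR adjusted p = 4.9e-10). Ccnb2, a cyclin B, read 0.771, 0.487, 1.83, 1.80 and 0.672 CPM at day 0 and 18.8, 23.0, 31.3, 42.7 and 29.9 CPM at day 3 (log2 fold change 4.70 ± 0.31, edgeR adjusted p = 4.9e-10). Ccnb1, the other mitotic cyclin B, had 1 count over the 5 day 0 libraries and 155 over the 5 day 3 libraries, a ratio of 189 with a 95% counting interval of 33.5 to 7528. That single day 0 count lay in library 15, so the fitted log2 fold change of 6.87 became 8.16 without it, and neither value is a bound. Foxm1, the transcription factor that activates many of these genes, read 0.257, 0, 1.05, 1.35 and 1.34 CPM at day 0 and 10.6, 9.69, 16.4, 19.1 and 12.1 CPM at day 3 (log2 fold change 4.19 ± 0.43, edgeR adjusted p = 2.1e-07). For Ccna2, Ccnb2 and Foxm1 the lowest day 3 library lay above the highest day 0 library.

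**Figure D2:**
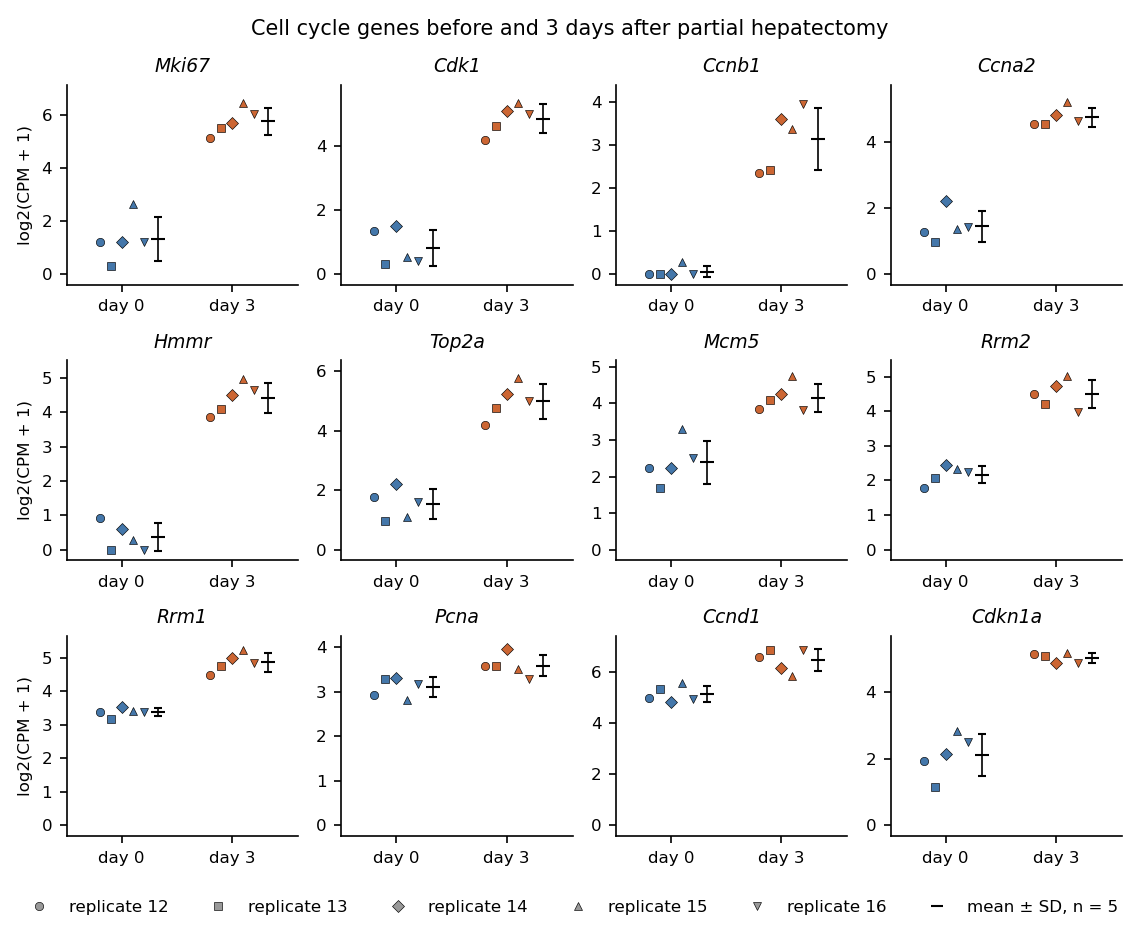
Level of 12 cell cycle genes in each library, as log2(CPM + 1), at day 0 and day 3, with a marker shape for each replicate number and a bar at the mean ± SD (n = 5). Mitotic genes separate fully between the days, Ccnd1 and Cdkn1a also do, and Pcna overlaps.

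Many mitotic genes share short promoter elements, and 4 promoters that hold some of them are printed as examples. The cell cycle genes homology region (CHR, TTTGAA) is bound by complexes that keep such genes silent in resting cells and active in dividing ones. The CCAAT box often accompanies it in promoters of mitotic genes, and E2F sites serve genes of DNA replication. Each line gives the 250 bases before the start site, from RefSeq on GRCm38.p6, 5′ to 3′ along the gene, with CHR, CCAAT and E2F letters in capitals on either strand, where the reverse complements read TTCAAA and ATTGG. The regions are chr10:69352913-69353162 for Cdk1, chr7:135716380-135716629 for Mki67, chr11:99024190-99024439 for Top2a, all on the minus strand, and chr8:75109259-75109508 on the plus strand for Mcm5.
Cdk1: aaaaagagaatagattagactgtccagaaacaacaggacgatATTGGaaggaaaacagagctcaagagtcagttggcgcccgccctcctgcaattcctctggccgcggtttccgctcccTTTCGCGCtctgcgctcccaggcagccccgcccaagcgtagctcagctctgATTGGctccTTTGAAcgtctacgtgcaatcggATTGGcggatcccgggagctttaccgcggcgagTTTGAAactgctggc
Mki67: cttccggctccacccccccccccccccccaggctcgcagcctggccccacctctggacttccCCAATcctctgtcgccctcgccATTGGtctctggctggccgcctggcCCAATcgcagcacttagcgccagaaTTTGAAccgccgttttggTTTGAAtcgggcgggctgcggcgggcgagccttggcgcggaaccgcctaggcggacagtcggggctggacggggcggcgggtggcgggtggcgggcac
Top2a: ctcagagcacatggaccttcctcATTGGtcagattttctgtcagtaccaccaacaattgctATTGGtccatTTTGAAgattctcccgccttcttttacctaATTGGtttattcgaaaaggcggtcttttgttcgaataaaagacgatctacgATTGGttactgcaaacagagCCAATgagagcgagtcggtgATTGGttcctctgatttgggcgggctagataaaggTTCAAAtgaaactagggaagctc
Mcm5: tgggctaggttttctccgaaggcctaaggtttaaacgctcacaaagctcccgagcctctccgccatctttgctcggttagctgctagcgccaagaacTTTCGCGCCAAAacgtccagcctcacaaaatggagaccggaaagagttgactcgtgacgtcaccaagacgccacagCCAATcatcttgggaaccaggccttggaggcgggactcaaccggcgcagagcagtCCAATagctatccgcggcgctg
Cdk1, Mki67 and Top2a each hold 2 CHR matches, with 3, 3 and 6 CCAAT matches. Mcm5, which encodes a subunit of the replication helicase, holds no CHR match, 2 CCAAT matches and 2 overlapping E2F matches, and Cdk1 holds 1 E2F match. The promoters of Ccnb1, Pcna and Rrm2 were searched over the same bases and are not printed. They hold no CHR match and no E2F match, with 2, 1 and 1 CCAAT matches.

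The same letters were counted in the 300 bases around every start site, from 250 before it to 50 after it, on both strands. The E2F forms were TTTCGCGC, TTTCCCGC, TTTGGCGC and TTTGCCGC, and the first and the third can overlap on opposite strands, as can CCAAT with its own reverse complement. Promoters were found for 62 of the 72 members of the mitosis list, 66 promoters in all. A CHR lay in 68.2% of these and in 17.9% of all 32851 promoters, and a CCAAT box in 71.2% against 37.4%. Both together lay in 53% of promoters of the mitosis list and in 6.95% of all promoters. For the DNA replication list, with 57 promoters of 48 of its 58 members, the shares were 21.1% for CHR, 56.1% for CCAAT and 31.6% for an E2F form, against 2.26% of all promoters with an E2F form. In the 10720 promoters of genes tested the shares were 12.2% for CHR, 37.8% for CCAAT, 4.87% for both and 3.95% for an E2F form. These matches describe letters in fixed windows, and no binding was measured.

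The mitosis list has 72 members, and all of them had counts. The mean was higher at day 3 in 70 of the 72, and in 64 every day 3 library lay above every day 0 library, against 4.48% of the 20257 genes with counts. In a fit without a filter on low counts 67 of the 72 rose and 1 fell, against 6.96% and 4.88% of all genes. The filter kept 61 members, of which 38 reached its minimum of 2.53 CPM in no day 0 library and so entered the test only through day 3. The summed level of the list was 144, 135, 153, 176 and 127 CPM at day 0 and 648, 795, 1089.5, 1438 and 1056 CPM at day 3. Library 12 was the lowest and library 15 the highest at day 3, and the groups did not overlap. Without day 3 libraries 12 and 14, 61 members rose in the filtered fit instead of 57.

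Members rose in every role in division, and the members named here as not passing or not tested were picked out after their values were seen. Of 18 cyclins, kinases and phosphatases of mitosis, 14 rose, Wee1, the kinase that restrains Cdk1, did not pass (0.59 ± 0.36), and Cdc25b, Cdc25c and Melk were not tested. Of 18 kinesins and spindle proteins, 16 rose, and Kif15 and Kif18b were not tested. Hmmr, a spindle protein, read 0.900, 0, 0.523, 0.225 and 0 CPM at day 0 and 13.6, 16.1, 21.4, 30.0 and 23.9 CPM at day 3 (log2 fold change 5.54 ± 0.41, edgeR adjusted p = 3.2e-09), and without day 0 library 12 its log2 fold change was 6.52. Prc1, which bundles the microtubules of the central spindle, read 0.386, 0.487, 0.784, 1.80 and 0.672 CPM at day 0 and 11.5, 15.3, 26.7, 42.3 and 24.9 CPM at day 3 (log2 fold change 4.88 ± 0.46, edgeR adjusted p = 3.7e-06). In both genes no day 3 library came near the day 0 range.

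Of 15 centromere and kinetochore proteins, 11 rose, and Cenpn, Ndc80, Sgo1 and Sgo2a were not tested. Cenpe, the kinesin of the kinetochore, read 0.129, 0.243, 0.784, 0.225 and 0 CPM at day 0 and 5.20, 6.12, 13.3, 15.9 and 18.2 CPM at day 3 (log2 fold change 5.32 ± 0.54, edgeR adjusted p = 2.2e-07), and without day 0 library 14 its log2 fold change was 5.97. Knl1, a kinetochore scaffold chosen here after its values were seen, had 0 counts at day 0 and 100 at day 3, at least 40.7-fold higher against a floor of 3 counts over the day 0 group. All 8 proteins of chromosome structure rose. Top2a, the topoisomerase that untangles sister chromatids, read 2.44, 0.974, 3.66, 1.12 and 2.01 CPM at day 0 and 17.2, 26.3, 36.6, 54.1 and 30.9 CPM at day 3 (log2 fold change 3.98 ± 0.37, edgeR adjusted p = 4.7e-06).

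Of 13 proteins of mitotic exit and cytokinesis, 8 rose and 1 fell, Ube2s (0.44 ± 0.39) and Fzr1 (-0.19 ± 0.18) did not pass, and Cep55 and Cit were not tested. Ube2c, the ubiquitin-conjugating enzyme of the anaphase-promoting complex, read 0.514, 0.243, 0.261, 1.35 and 0.336 CPM at day 0 and 7.92, 12.0, 18.9, 32.0 and 16.1 CPM at day 3 (log2 fold change 4.89 ± 0.47, edgeR adjusted p = 6.3e-07). Cdkn3, a phosphatase that acts on Cdk1 and is also among the largest rises, read 0.129, 0, 0, 0.674 and 0 CPM at day 0 and 13.1, 13.5, 9.31, 19.1 and 15.5 CPM at day 3 (log2 fold change 6.13 ± 0.48, edgeR adjusted p = 3.2e-09), and without day 0 library 15 its log2 fold change was 7.42. Both stood in separate ranges on the 2 days. The member that fell was Pttg1, securin, the inhibitor of separase, at 24.4, 23.4, 32.7, 25.4 and 26.2 CPM at day 0 and 16.1, 20.9, 23.9, 13.6 and 10.1 CPM at day 3 (log2 fold change -0.64 ± 0.19, edgeR adjusted p = 0.018). Its groups overlapped, and it did not pass without day 0 library 14 (edgeR adjusted p = 0.058), day 3 library 15 (edgeR adjusted p = 0.056) or day 3 library 16 (edgeR adjusted p = 0.053).

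**Figure D3:**
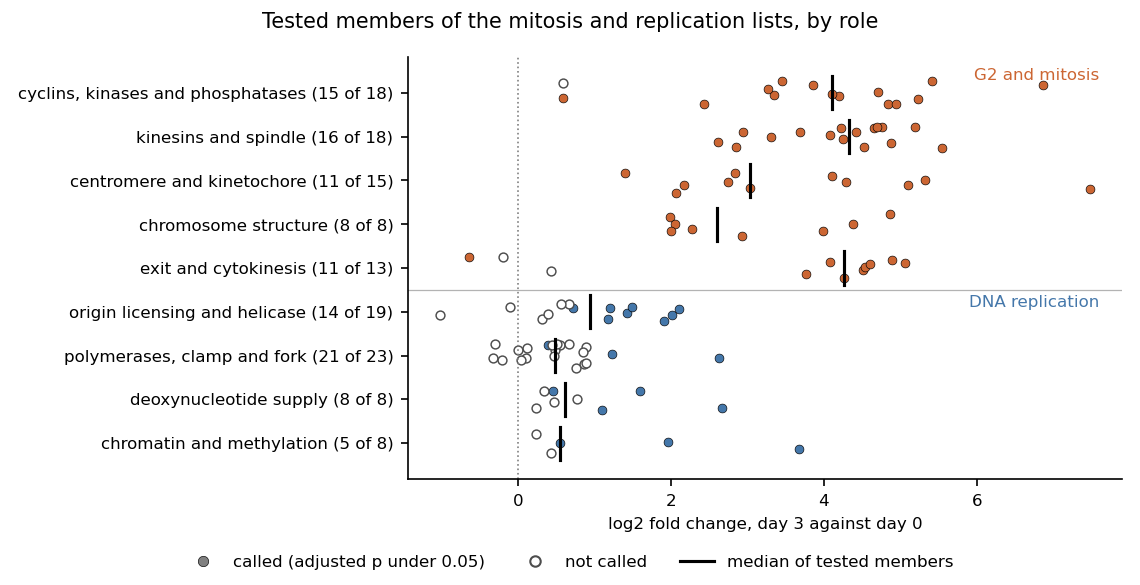
Log2 fold change, day 3 over day 0, of each tested member of the mitosis and DNA replication lists by role, filled where called and open where not, with a line at the median. Mitotic roles lie mostly above 2 and replication roles mostly below 2, and the right-most point, Knl1, had 0 counts at day 0, so its place depends on the prior count of the fit.

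Part of the DNA replication list rose at day 3. It has 58 members, of which 53 had the higher mean at day 3. In 16 every day 3 library lay above every day 0 library, against 4.48% of the 20257 genes with counts. In 1, Rfc1, a clamp loader subunit picked out after its values were seen, every day 3 library lay below (-0.31 ± 0.14, not passed). Without a filter on low counts 23 of the 58 rose, against 6.96% of all genes. Of 48 tested 18 rose and 30 did not pass, with a median of 0.56. No member fell with edgeR, 2 had a lower level at an unadjusted p under 0.05, and 1 was called lower with each of DESeq2 and limma-voom. The summed level was 452, 439.6, 489, 561 and 534 CPM at day 0 and 579, 631, 749, 733 and 664 CPM at day 3, higher in every day 3 library than in any day 0 library. Without day 3 libraries 12 and 14 the number that rose was again 18. How the change in replication genes compares with that in mitosis genes was not tested.

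Of 14 tested genes of origin licensing and the replication helicase 8 rose and 6 did not pass, and 1 was lower at an unadjusted p under 0.05. Among those that rose were all 6 of Mcm2 to Mcm7, helicase subunits grouped here after their values were seen. They were higher by 0.72 to 1.91 on the log2 scale. Without day 3 library 15, Mcm7 lost its call (log2 fold change 0.55 ± 0.21, edgeR adjusted p = 0.085). Mcm5 (chromosome 8, 75109569 to 75128439, plus strand) read 3.73, 2.19, 3.66, 8.77 and 4.70 CPM at day 0 and 13.3, 16.1, 17.99, 25.7 and 13.1 CPM at day 3 (log2 fold change 1.91 ± 0.29, edgeR adjusted p = 5.6e-05). Its highest day 0 library, 15, lay below its lowest day 3 library, 16. Both subunits of ribonucleotide reductase, which makes the deoxynucleotides, rose. Rrm2, the subunit limiting in S phase, read 2.44, 3.16, 4.44, 4.05 and 3.69 CPM at day 0 and 21.7, 17.6, 25.4, 31.1 and 14.8 CPM at day 3 (log2 fold change 2.67 ± 0.24, edgeR adjusted p = 3.0e-08). Rrm1, the large subunit, read 9.51, 8.03, 10.5, 9.67 and 9.40 CPM at day 0 and 21.5, 26.0, 30.7, 36.8 and 27.6 CPM at day 3 (log2 fold change 1.6 ± 0.17, edgeR adjusted p = 3.6e-07). Neither showed any overlap between the days, and Tyms, thymidylate synthase, chosen after its values were seen, rose as well (1.10 ± 0.29).

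At the fork, 3 of 21 tested polymerase, clamp and ligase genes rose, namely Lig1 and, picked out after their values were seen, Prim1 (1.23 ± 0.34) and Rpa1 (0.39 ± 0.13). Rpa1 lost its call without any 1 of 6 libraries (day 0 libraries 12, 15 and 16 and day 3 libraries 13, 14 and 16, edgeR adjusted p = 0.069 to 0.11). Lig1, the ligase that joins Okazaki fragments, read 2.19, 1.95, 1.31, 3.15 and 0.672 CPM at day 0 and 7.01, 12.0, 15.2, 14.3 and 12.4 CPM at day 3 (log2 fold change 2.63 ± 0.33, edgeR adjusted p = 2.8e-06). Pcna, the sliding clamp and a common marker of proliferation, read 6.56, 8.76, 8.89, 6.07 and 8.06 CPM at day 0 and 10.9, 10.97, 14.6, 10.5 and 8.74 CPM at day 3. Its log2 fold change of 0.55 ± 0.22 did not pass (edgeR adjusted p = 0.092), and day 3 library 16 lay within the day 0 range. Uhrf1, which brings the maintenance DNA methyltransferase to replicated DNA, read 0.257, 0.243, 0.261, 1.57 and 0 CPM at day 0 and 5.43, 5.87, 8.997, 5.91 and 6.39 CPM at day 3 (log2 fold change 3.68 ± 0.51, edgeR adjusted p = 1.0e-05), or 4.75 without day 0 library 15. It was low in 4 day 0 libraries and higher in all 5 day 3 libraries.

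Of 23 tested regulators of G1 and S phase, 7 rose and 1 fell. Ccnd1, cyclin D1, through which growth signals start the cycle, read 30.8, 39.4, 27.97, 47.2 and 29.9 CPM at day 0 and 97.3, 116, 72.0, 57.7 and 116 CPM at day 3 (log2 fold change 1.38 ± 0.22, edgeR adjusted p = 0.0012). Every day 3 library lay above day 0, library 15 by the smallest margin. Cdkn1a, which encodes the kinase inhibitor p21 (chromosome 17, 29090976 to 29100727, plus strand), read 2.83, 1.22, 3.40, 6.07 and 4.70 CPM at day 0 and 34.2, 32.7, 28.2, 35.0 and 28.2 CPM at day 3 (log2 fold change 3.15 ± 0.24, edgeR adjusted p = 3.2e-09). Its 5 day 3 libraries were close together and 8.86-fold above day 0. A second inhibitor rose, Cdkn2c (p18), from 5.74 ± 1.54 to 17.7 ± 4.36 CPM (log2 fold change 1.64 ± 0.24, edgeR adjusted p = 1.7e-05).

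Among E2F and pocket proteins, E2f1 (1.10 ± 0.34), E2f2 (1.6 ± 0.38) and Rbl1 (1.49 ± 0.34), chosen after their values were seen, rose, and Rbl2 fell. E2f1 lost its call without any 1 of 5 libraries (day 0 libraries 12, 14 and 15 and day 3 libraries 14 and 16, edgeR adjusted p = 0.066 to 0.072). Rbl2 encodes p130, the pocket protein of resting cells, and read 42.8, 38.7, 45.0, 44.7 and 43.0 CPM at day 0 and 28.5, 29.3, 24.8, 21.8 and 28.9 CPM at day 3 (log2 fold change -0.68 ± 0.12, edgeR adjusted p = 0.00027). Its day 3 libraries all lay below day 0. Myc went from 5.43 ± 3.47 to 7.91 ± 2.79 CPM and did not pass (edgeR adjusted p = 0.37). Ccne2, cyclin E2, was not tested for low counts and had 6 counts at day 0 and 34 at day 3.

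Of 20 tested targets of p53, 8 rose, with a median of 0.47, and 5 rose without day 3 library 12. None fell with edgeR, DESeq2 or limma-voom, and none was lower at an unadjusted p under 0.05. The 8 included Cdkn1a, Phlda3 (3.05 ± 0.63), Btg2 (1.44 ± 0.22) and Trp53inp1, and Phlda3 and Btg2 were chosen after their values were seen. Without day 0 library 13 the log2 fold change of Phlda3 was 4.22. Trp53inp1, a stress protein, read 45.1, 31.4, 43.1, 40.2 and 38.3 CPM at day 0 and 88.5, 64.3, 76.3, 61.6 and 78.0 CPM at day 3 (log2 fold change 0.89 ± 0.12, edgeR adjusted p = 9.2e-06) with no overlap. The DNA repair and checkpoint list has 27 members, of which 12 passed the filter. In the fit without it 15 rose, against 6.96% of all genes. Of those tested, 4 rose, Fanca, Brca1 and Topbp1 among them, and 7 rose without day 0 library 12, 14 or 16 or without day 3 library 13.

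Among lists of cell growth, those of the ribosome showed few called changes and others showed more. None of 24 tested cytosolic ribosomal proteins and none of 26 genes of ribosome biogenesis rose with edgeR, DESeq2 or limma-voom. Of all genes tested 9.73% rose with edgeR. At an unadjusted p under 0.05, 2 and 1 of the ribosomal genes were higher, and the medians were -0.03 and -0.01. With total counts as the scale the medians became 0.11 and 0.12, and 2 and 3 of these genes rose. A single biogenesis gene fell, Rrn3, a factor of RNA polymerase I, from 28.9 ± 8.93 to 18.9 ± 2.12 CPM (log2 fold change -0.59 ± 0.18, edgeR adjusted p = 0.024), and it did not pass without day 0 library 15 (edgeR adjusted p = 0.069), day 0 library 16 (edgeR adjusted p = 0.083), day 3 library 14 (edgeR adjusted p = 0.057) or day 3 library 15 (edgeR adjusted p = 0.061). Of 19 tested genes of translation initiation and elongation 3 rose and 3 fell (15.8% each, against 9.73% and 8.01% of all genes). Without 1 library 0 to 4 rose and 3 fell, and without day 3 libraries 12 and 14, 1 rose and 3 fell. Their summed level was 3795 to 4052 CPM at day 0 and 3406 to 3520 CPM at day 3. Of 22 tested genes of nuclear transport and the lamina, 7 rose (31.8%) and 15 did not pass. None fell with edgeR, DESeq2 or limma-voom or at an unadjusted p under 0.05, and the median was 0.46. The summed level of this list was 400.2 to 442 CPM at day 0 and 551 to 626 CPM at day 3. Tmpo, a lamina-associated protein, read 37.7, 34.6, 38.2, 33.5 and 23.5 CPM at day 0 and 55.2, 57.4, 55.8, 70.2 and 62.2 CPM at day 3 (log2 fold change 0.83 ± 0.13, edgeR adjusted p = 3.1e-05), and Kpnb1, importin beta, rose from 106 ± 8.58 to 151 ± 8.50 CPM (log2 fold change 0.52 ± 0.09, edgeR adjusted p = 0.00013).

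The cytoskeleton list of actin, annexins and S100 proteins had 11 of 19 tested members higher and none lower with edgeR, DESeq2 or limma-voom or at an unadjusted p under 0.05, with a median of 0.68, and 8 rose without day 3 libraries 12 and 14. Anxa2, a membrane-binding annexin, read 9.51, 7.06, 13.1, 7.87 and 15.1 CPM at day 0 and 50.01, 31.6, 45.6, 36.4 and 31.3 CPM at day 3 (log2 fold change 1.92 ± 0.20, edgeR adjusted p = 3.3e-07). Among 12 tested tubulins and microtubule regulators Tubb5, Tubb6, Tubb4b, Tuba8 and Stmn1 rose and Tuba4a fell. Tubb6, a beta-tubulin, read 4.76, 6.33, 8.63, 7.64 and 1.68 CPM at day 0 and 22.2, 39.8, 43.7, 72.5 and 44.4 CPM at day 3 (log2 fold change 2.92 ± 0.39, edgeR adjusted p = 0.00055), whereas Tuba4a, an alpha-tubulin, read 203, 156, 204, 154 and 157 CPM at day 0 and 106, 115, 107, 88.2 and 81.7 CPM at day 3 (log2 fold change -0.81 ± 0.11, edgeR adjusted p = 1.1e-05). The days did not overlap for any of these 3 genes.

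Stress and growth factor genes changed in part. Of 21 tested genes of the unfolded protein and integrated stress response 6 rose, with a median of 0.26, and 11 rose without day 0 library 12. Xbp1 and Trib3 fell. Xbp1 did not pass without any 1 of 5 libraries (day 0 libraries 14, 15 and 16 and day 3 libraries 12 and 16, edgeR adjusted p = 0.057 to 0.062), and Trib3 without any 1 of 5 libraries (day 0 libraries 12, 14 and 16 and day 3 libraries 15 and 16, edgeR adjusted p = 0.063 to 0.092). Hspa5, the chaperone of the endoplasmic reticulum, went from 644 ± 79.3 to 1022 ± 61.1 CPM (log2 fold change 0.67 ± 0.10, edgeR adjusted p = 2.2e-05), with every day 3 library above day 0. Growth factor transcripts gave no common direction, with Osmr and Fst higher and Lifr, Vegfa, Inhbe, Egfr and Hgfac lower among 23 tested, a median of 0.01, 4 higher without day 0 library 13 and 8 lower without day 0 library 12. The shares were 8.70% higher and 21.7% lower, against 9.73% and 8.01% of all genes, and Egfr and Hgfac did not pass with total counts as the scale. Hgf (0.62 ± 0.37), the hepatocyte growth factor, and its receptor gene Met (0.01 ± 0.11) did not pass. Osmr, the oncostatin M receptor, read 2.19, 4.63, 1.57, 3.37 and 2.69 CPM at day 0 and 9.28, 5.87, 8.38, 12.5 and 7.40 CPM at day 3 (log2 fold change 1.6 ± 0.32, edgeR adjusted p = 0.00094). Lifr, the receptor of leukaemia inhibitory factor that shares its signalling partner, read 393, 499, 705.1, 545 and 838 CPM at day 0 and 178, 173, 181, 244 and 231 CPM at day 3 (log2 fold change -1.56 ± 0.21, edgeR adjusted p = 0.00043). Osmr was higher in all 5 day 3 libraries and Lifr lower in all 5.

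Large losses lay in transcripts that male liver makes in excess over female liver, under the pulsed growth hormone of males. Of 30 such genes, all tested, 26 fell and none rose with edgeR, DESeq2 or limma-voom or at an unadjusted p under 0.05, in 23 every day 3 library lay below every day 0 library, and the median was -1.38. Without day 3 libraries 12 and 14, 24 fell. The summed level was 107672, 81513, 84408, 82685 and 119696 CPM at day 0 and 26385, 38405, 35306, 36241 and 33323 CPM at day 3, and this sum is mostly major urinary proteins. The lowest day 0 library held more than 2 times the highest day 3 level. The list was written with earlier results of these samples known, so its direction is a description.

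Hsd3b5 (chromosome 3, 98618634 to 98630252, minus strand) read 282, 279, 366, 319 and 351 CPM at day 0 and 27.6, 44.6, 27.9, 31.8 and 25.2 CPM at day 3 (log2 fold change -3.34 ± 0.14, edgeR adjusted p = 9.2e-12). Its day 3 libraries all lay far below day 0, and reads shared with Hsd3b4 were not counted. Cyp7b1, which hydroxylates oxysterols on the way to bile acids (chromosome 3, 18071950 to 18243338, minus strand), read 601, 492, 501, 490.5 and 623 CPM at day 0 and 151, 162, 141, 118 and 161 CPM at day 3 (log2 fold change -1.89 ± 0.10, edgeR adjusted p = 1.3e-11). Sult2a8, a sulfotransferase of bile acids, read 726, 792, 866, 656 and 793 CPM at day 0 and 128, 216, 229, 181 and 195 CPM at day 3 (log2 fold change -2.02 ± 0.13, edgeR adjusted p = 3.0e-09). Both were lower in every day 3 library, and each day was tight. Mup3, a major urinary protein whose value shares the doubt over its cluster, fell from 7698 ± 1002 to 2543 ± 472 CPM (log2 fold change -1.6 ± 0.13, edgeR adjusted p = 3.3e-09), and Elovl3, an elongase of long fatty acids, from 387 ± 144 to 115 ± 18.6 CPM (log2 fold change -1.75 ± 0.24, edgeR adjusted p = 0.00079).

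Some genes that female liver makes in excess rose. Of 26 members 15 were tested and 8 rose, with a median of 1.09, and 8 rose without day 3 libraries 12 and 14. None fell with edgeR, DESeq2 or limma-voom, and 1 was lower at an unadjusted p under 0.05. Without a filter on low counts 9 of the 26 rose and 1 fell, against 6.96% and 4.88% of all genes. Of those that rose, 4 cannot be separated cleanly, since Cyp3a16, Cyp3a41a, Cyp3a41b and Cyp3a44 are near copies. Cyp3a44 read 86.5, 67.4, 85.8, 84.3 and 105 CPM at day 0 and 192, 192, 229.9, 193 and 321 CPM at day 3 (log2 fold change 1.39 ± 0.15, edgeR adjusted p = 1.3e-05). Atp6v0d2, a subunit of the vacuolar proton pump without such a copy in the list, read 1.03, 1.22, 0.523, 0.899 and 1.68 CPM at day 0 and 7.92, 11.2, 10.9, 6.14 and 5.38 CPM at day 3 (log2 fold change 2.96 ± 0.38, edgeR adjusted p = 4.0e-06). The days did not overlap in either gene. The summed level of the list was 509 to 610.2 CPM at day 0 and 963 to 1586 CPM at day 3.

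**Figure D4:**
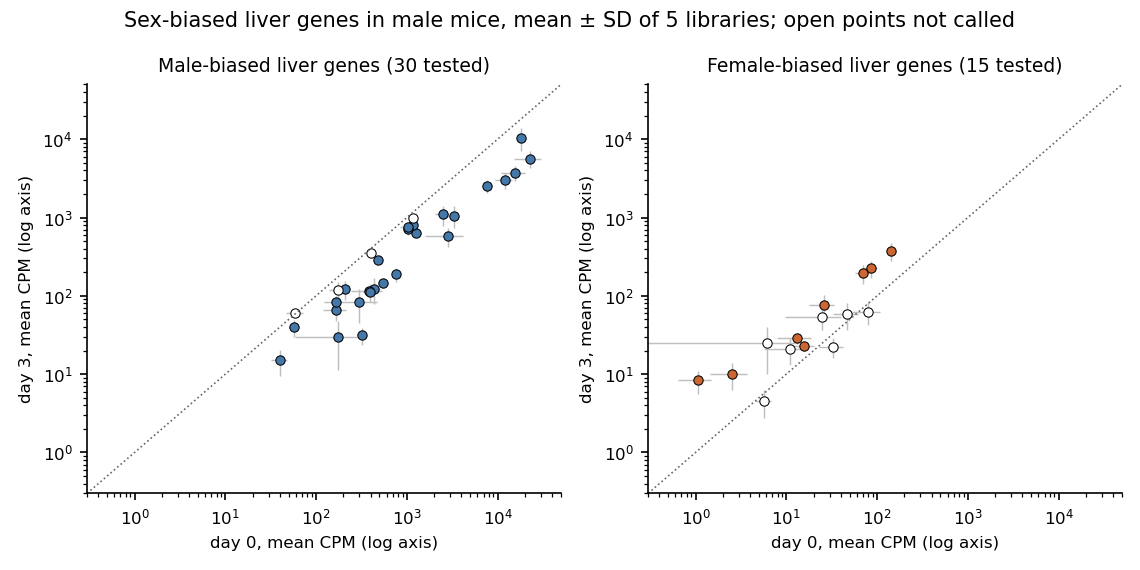
Mean ± SD CPM at day 0 and day 3 (n = 5 each, log axes) of the 30 male-biased and the 15 tested female-biased genes, filled where called and open where not, with a dotted line of equality. Called male-biased genes lie under the line and called female-biased genes above it.

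The growth hormone axis itself held called changes in both directions, 4 of 21 tested genes higher and 5 lower, with a median of -0.08 that became 0.09 with total counts as the scale. Ghr, the growth hormone receptor, read 434, 449, 529, 455 and 526 CPM at day 0 and 286, 324, 300.3, 291 and 325 CPM at day 3 (log2 fold change -0.65 ± 0.09, edgeR adjusted p = 9.7e-06), lower in every day 3 library. Socs2, a feedback inhibitor that growth hormone induces, went from 28.6 ± 12.8 to 9.80 ± 2.72 CPM (log2 fold change -1.50 ± 0.32, edgeR adjusted p = 0.0067). Igfals, which stabilises IGF1 in plasma, went from 123 ± 6.41 to 86.4 ± 17.5 CPM (log2 fold change -0.51 ± 0.11, edgeR adjusted p = 0.0019), and Igfbp4 and Igfbp3 also fell. Igfbp3 (-0.98 ± 0.33) did not pass without day 0 library 14 (edgeR adjusted p = 0.11), day 0 library 15 (edgeR adjusted p = 0.058), day 0 library 16 (edgeR adjusted p = 0.087), day 3 library 13 (edgeR adjusted p = 0.056), day 3 library 14 (edgeR adjusted p = 0.070), day 3 library 15 (edgeR adjusted p = 0.11) or day 3 library 16 (edgeR adjusted p = 0.088). The 4 that rose were Igf2r, Irs1, Irs2 and Igfbp1, and Irs2, an insulin receptor substrate, read 18.5, 8.03, 8.37, 5.17 and 12.8 CPM at day 0 and 34.6, 19.6, 27.6, 32.7 and 27.2 CPM at day 3 (log2 fold change 1.39 ± 0.28, edgeR adjusted p = 0.0032). Igfbp1, a short-lived IGF binding protein, read 32.3, 9.49, 5.49, 28.8 and 39.6 CPM at day 0 and 112, 34.2, 142, 92.9 and 125 CPM at day 3 (log2 fold change 2.12 ± 0.56, edgeR adjusted p = 0.033). Its groups overlapped, and it did not pass without day 0 library 13 (edgeR adjusted p = 0.067), day 0 library 14 (edgeR adjusted p = 0.051), day 0 library 15 (edgeR adjusted p = 0.063), day 3 library 12 (edgeR adjusted p = 0.066), day 3 library 14 (edgeR adjusted p = 0.068), day 3 library 15 (edgeR adjusted p = 0.060) or day 3 library 16 (edgeR adjusted p = 0.069). Igf1 did not pass (-0.17 ± 0.10).

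Hepatocytes near the central vein and near the portal vein run different pathways, and markers of the central zone fell in part. Of 29 tested pericentral genes 9 fell, with a median of -0.13. Cyp2e1, the ethanol-oxidising P450, read 4458, 5303, 5889.9, 4037 and 5058 CPM at day 0 and 1505, 1836, 2738, 2221 and 1997 CPM at day 3 (log2 fold change -1.27 ± 0.14, edgeR adjusted p = 2.0e-06). Glul, glutamine synthetase, which marks the innermost hepatocytes, read 926, 713, 919.5, 702 and 833 CPM at day 0 and 365, 409, 616, 434 and 410.2 CPM at day 3 (log2 fold change -0.87 ± 0.13, edgeR adjusted p = 5.1e-05). Both were lower in all 5 day 3 libraries, with library 14 the least reduced. Cyp1a2 (-0.67 ± 0.10) and Cyp27a1 (-0.74 ± 0.10) fell as well. The 5 that rose were Slc1a4, Gstm3, Ahr, Slc22a3 and Cyp7a1, and 3 rose when day 0 library 13, 15 or 16 or day 3 library 16 was left out. Slc22a3 did not pass without any 1 of 7 libraries (day 0 libraries 13, 15 and 16 and day 3 libraries 13, 14, 15 and 16, edgeR adjusted p = 0.063 to 0.095). Slc1a4, an amino acid transporter, rose from 6.81 ± 3.02 to 28.7 ± 2.78 CPM (log2 fold change 2.04 ± 0.22, edgeR adjusted p = 7.6e-07). Gstm3, a glutathione S-transferase, read 57.3, 31.6, 55.4, 47.7 and 44.7 CPM at day 0 and 586, 652, 197, 218 and 701.1 CPM at day 3 (log2 fold change 3.31 ± 0.44, edgeR adjusted p = 0.0012), again with libraries 12, 13 and 16 above 14 and 15. Of 26 tested periportal genes Cyp2f2, Hal, Sult5a1, Pigr and Serpina1c fell and Hsd17b13, Aldh1b1, Uroc1 and Apoa4 rose, with a median of 0.01. Apoa4 did not pass without day 0 library 12 (edgeR adjusted p = 0.065), day 0 library 13 (edgeR adjusted p = 0.068), day 0 library 14 (edgeR adjusted p = 0.070), day 0 library 16 (edgeR adjusted p = 0.068), day 3 library 14 (edgeR adjusted p = 0.059), day 3 library 15 (edgeR adjusted p = 0.065) or day 3 library 16 (edgeR adjusted p = 0.066). Cyp2f2, a periportal P450, fell from 1635 ± 87.9 to 1068 ± 140.3 CPM (log2 fold change -0.61 ± 0.10, edgeR adjusted p = 9.3e-05).

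Drug-metabolising genes moved in both directions. Of 27 tested P450 genes 8 rose, and Cyp2d10, Cyp2d9, Cyp2d22, Cyp2c50 and Cyp2j5 fell, with a median of -0.06 that became 0.06 with total counts as the scale. Without day 3 library 14, 9 fell. Cyp3a11, the main inducible P450 of the Cyp3a family, read 2194, 1872, 2069.6, 2155 and 2618 CPM at day 0 and 4952, 5049, 6147, 5685 and 8021 CPM at day 3 (log2 fold change 1.45 ± 0.13, edgeR adjusted p = 2.3e-08). Cyp2c55, a P450 that is low in resting liver, read 5.27, 2.68, 4.97, 5.17 and 2.69 CPM at day 0 and 36.2, 20.9, 18.6, 24.1 and 35.6 CPM at day 3 (log2 fold change 2.65 ± 0.24, edgeR adjusted p = 3.8e-08). Cyp2d10, whose close relatives make its value uncertain, read 487, 490.3, 504.6, 495 and 562 CPM at day 0 and 228, 297, 277, 229 and 230.0 CPM at day 3 (log2 fold change -1.01 ± 0.09, edgeR adjusted p = 4.9e-08). In each of these the groups did not overlap. Among 43 tested conjugating enzymes and transporters 13 rose and 15 fell, with a median of -0.18, and 12 rose and 15 fell without day 3 libraries 12 and 14. Ces3b, a carboxylesterase with close relatives, fell from 1791 ± 163 to 662 ± 104 CPM (log2 fold change -1.44 ± 0.11, edgeR adjusted p = 3.2e-09).

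Of 34 tested genes of the urea cycle and amino acid breakdown 12 fell and Nags, Sdsl and Aass rose, and with total counts as the scale 6 fell and 7 rose. Without day 3 library 15 a single one rose, since Sdsl and Nags lost the call (edgeR adjusted p = 0.052 and 0.079). Nags did not pass without any 1 of 4 libraries (day 0 libraries 14 and 16 and day 3 libraries 12 and 15, edgeR adjusted p = 0.054 to 0.079). Tdo2, which opens the tryptophan ring, read 1153, 1035, 1416, 1359 and 1506 CPM at day 0 and 551, 852, 735, 701.2 and 839 CPM at day 3 (log2 fold change -0.81 ± 0.12, edgeR adjusted p = 3.8e-05), and Prodh, proline dehydrogenase, went from 161 ± 22.0 to 92.6 ± 14.7 CPM (log2 fold change -0.80 ± 0.11, edgeR adjusted p = 1.2e-05). Cdo1, which oxidises cysteine, fell from 1178 ± 124 to 624 ± 119.9 CPM (log2 fold change -0.92 ± 0.12, edgeR adjusted p = 5.2e-06), and Cth, which makes cysteine from cystathionine, rose from 302 ± 57.6 to 531 ± 58.3 CPM (log2 fold change 0.81 ± 0.11, edgeR adjusted p = 1.7e-05). Cps1, the first enzyme of the urea cycle, did not pass (0.24 ± 0.13), and neither did Pck1, of gluconeogenesis (0.08 ± 0.33).

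In bile acid metabolism 8 of 22 tested genes fell and 2 rose, with a median of -0.13, and 3 rose without day 3 libraries 12 and 14. Cyp8b1, the sterol 12-alpha-hydroxylase that sets the share of cholic acid, read 721, 463, 539, 519.7 and 489.9 CPM at day 0 and 201, 446, 278, 225 and 212 CPM at day 3 (log2 fold change -1.01 ± 0.24, edgeR adjusted p = 0.018). It was lower in all 5 day 3 libraries, library 13 by a small margin, and did not pass without day 3 libraries 12 and 14 (edgeR adjusted p = 0.099). Baat, which joins bile acids to amino acids, fell from 265 ± 18.9 to 176 ± 22.0 CPM (log2 fold change -0.59 ± 0.09, edgeR adjusted p = 7.3e-05). The 2 that rose were Akr1d1, a bile acid reductase, and Cyp39a1, an oxysterol hydroxylase, the latter from 15.9 ± 6.01 to 39.6 ± 11.2 CPM (log2 fold change 1.34 ± 0.26, edgeR adjusted p = 0.0032). Cyp7a1 was counted in the pericentral list and not in this one. Cyp7a1, which takes the first and limiting step from cholesterol to bile acids, read 202, 154, 113, 138 and 139 CPM at day 0 and 221, 183, 246, 366 and 322 CPM at day 3 (log2 fold change 0.84 ± 0.22, edgeR adjusted p = 0.024). Its groups overlapped, and it did not pass without day 0 library 13 (edgeR adjusted p = 0.053), day 0 library 15 (edgeR adjusted p = 0.057), day 0 library 16 (edgeR adjusted p = 0.061) or day 3 library 16 (edgeR adjusted p = 0.055).

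Lipid genes, the subject of the series, changed in both directions. Of the 24 tested genes of cholesterol synthesis and SREBP2 targets 7 fell, among them Tm7sf2 (-0.64 ± 0.09) and Hsd17b7 (-0.82 ± 0.12). The median of the list was -0.26, and 2 members rose. One was Ebp, which did not pass without day 0 library 13 (edgeR adjusted p = 0.052), day 0 library 14 (edgeR adjusted p = 0.055) or day 0 library 15 (edgeR adjusted p = 0.059). The count of falls was 4 without day 0 library 16, 4 without day 3 libraries 12 and 14, and 3 with total counts as the scale.

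Cd36, a fatty acid transporter, read 14.4, 18.3, 20.7, 17.98 and 12.4 CPM at day 0 and 65.2, 45.4, 26.4, 42.5 and 48.4 CPM at day 3 (log2 fold change 1.45 ± 0.20, edgeR adjusted p = 3.8e-05), with library 14 the lowest at day 3 and still above day 0. Of 17 tested genes of fatty acid elongation and desaturation 3 rose and 1 fell, and of 17 of fatty acid synthesis 1 rose and 4 fell. Scd1, the main desaturase of liver, read 1971, 2046, 4063, 5238 and 4076 CPM at day 0 and 11756, 11956, 3387, 4708 and 11799.9 CPM at day 3. Libraries 12, 13 and 16 stood at more than 2 times every day 0 library while 14 and 15 lay within the day 0 range, and the log2 fold change of 1.33 ± 0.46 did not pass (edgeR adjusted p = 0.091). Its relative Scd2 read 5.27, 3.41, 6.80, 1.35 and 6.72 CPM at day 0 and 46.8, 18.1, 14.3, 23.4 and 55.8 CPM at day 3 (log2 fold change 2.76 ± 0.52, edgeR adjusted p = 0.0062) with no overlap. Fasn (0.31 ± 0.36), Srebf1 (-0.06 ± 0.19), Elovl6 (0.73 ± 0.32), Fads2 (-0.14 ± 0.23) and Plin2 (-0.05 ± 0.23), of fatty acid synthesis, elongation, desaturation and lipid droplets, did not pass.

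Few genes of triglyceride and phospholipid metabolism were called. Of 27 tested triglyceride genes 2 rose and 2 fell (7.41% each), of 26 of phospholipid synthesis 2 rose and 3 fell (7.69% and 11.5%), and of 28 of sphingolipid metabolism 4 rose and 3 fell (14.3% and 10.7%), against 9.73% and 8.01% of all genes. The genes named next are single called genes. A single triglyceride gene fell without any 1 of 5 libraries (day 0 libraries 12 and 14 and day 3 libraries 12, 13 and 16) or with total counts as the scale. That scale gave 4 rises for triglyceride and 6 for phospholipid genes. Chka, choline kinase, read 48.6, 49.2, 40.3, 33.9 and 40.3 CPM at day 0 and 99.8, 107, 67.3, 87.0 and 82.0 CPM at day 3 (log2 fold change 1.06 ± 0.13, edgeR adjusted p = 2.1e-06), above day 0 in all 5 day 3 libraries. Pcyt2, of the ethanolamine branch, fell from 504.4 ± 26.6 to 377 ± 4.32 CPM (log2 fold change -0.42 ± 0.08, edgeR adjusted p = 0.00057), and Dgat2, which makes triglyceride, from 392 ± 27.7 to 252 ± 15.8 CPM (log2 fold change -0.64 ± 0.09, edgeR adjusted p = 7.8e-06). Sptlc2, a subunit of the enzyme that starts sphingolipid synthesis, rose from 20.4 ± 3.13 to 35.4 ± 2.96 CPM (log2 fold change 0.80 ± 0.14, edgeR adjusted p = 0.00016), and Lipa, the lysosomal lipase, from 170.2 ± 11.6 to 247 ± 29.3 CPM (log2 fold change 0.53 ± 0.09, edgeR adjusted p = 0.00016). Among 36 tested genes of lipoproteins, lipid uptake and export 9 rose (25%) and 13 fell (36.1%), 5 rose without day 0 library 13, and 7 fell with total counts as the scale or without day 3 libraries 12 and 14. Apoa5 (-0.93 ± 0.11), a regulator of plasma triglyceride, and Abcg8 (-0.95 ± 0.12), a sterol exporter, fell.

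Secreted plasma proteins shifted in both directions. Of 22 tested hepatocyte secreted proteins 5 rose and 6 fell, or 8 and 3 with total counts as the scale. Of 31 tested genes of coagulation and complement 4 rose and 11 fell, 5 fell on that scale, and 2 rose without day 3 libraries 12 and 14. Alb read 46895, 53562, 62451, 56744 and 48226 CPM at day 0 and 86011, 88748, 85081, 99217 and 98223 CPM at day 3 (log2 fold change 0.77 ± 0.11, edgeR adjusted p = 2.4e-05), above day 0 in every day 3 library. Serpina3k, a protease inhibitor, fell from 15734 ± 1506 to 7972 ± 1232 CPM (log2 fold change -0.98 ± 0.12, edgeR adjusted p = 2.1e-06), and C8b, of the membrane attack complex, from 621 ± 63.6 to 311 ± 31.1 CPM (log2 fold change -0.99 ± 0.10, edgeR adjusted p = 7.6e-08). Of 22 tested genes of iron and heme 5 rose and 4 fell, and 2 fell without day 0 library 13, without day 3 library 12 or 15, without both day 3 libraries 12 and 14 or with total counts as the scale. Hamp, the hormone hepcidin that limits iron export, read 316, 337, 302, 383 and 304 CPM at day 0 and 81.5, 106, 113, 24.99 and 81.0 CPM at day 3 (log2 fold change -2.02 ± 0.35, edgeR adjusted p = 0.0043). All 5 day 3 libraries lay far below day 0, and library 15 was the lowest. Hamp2, a paralog of Hamp, fell from 32.8 ± 3.14 to 10.8 ± 4.49 CPM (log2 fold change -1.6 ± 0.25, edgeR adjusted p = 0.00025). Id2, like Hamp a target of BMP signals, fell from 143 ± 23.8 to 70.4 ± 20.8 CPM (log2 fold change -1.01 ± 0.18, edgeR adjusted p = 0.0024). Tfrc, the transferrin receptor, rose from 24.7 ± 7.12 to 52.3 ± 16.2 CPM (log2 fold change 1.08 ± 0.25, edgeR adjusted p = 0.012).

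Acute phase and metallothionein genes varied widely between libraries of the same day. Of 22 tested acute phase genes 2 rose and 2 fell (9.09% each), and without 1 library the numbers ran from 0 to 4 and from 1 to 2. Saa1, serum amyloid A1, read 3222, 1511, 80.3, 912 and 575 CPM at day 0 and 3729, 312, 6295, 3966 and 1155 CPM at day 3 (log2 fold change 1.29 ± 1.00, edgeR adjusted p = 0.45, not passed). Orm2, an acid glycoprotein, read 276, 287, 20.1, 132 and 69.8 CPM at day 0 and 533, 242, 886, 828 and 245 CPM at day 3 (edgeR adjusted p = 0.14, not passed). Mt2, a metal-binding protein, read 5.40, 11.2, 1.31, 5.17 and 1.34 CPM at day 0 and 60.9, 16.1, 268, 259.9 and 15.1 CPM at day 3 (log2 fold change 4.59 ± 1.10, edgeR adjusted p = 0.023). At day 3 all of them were high in libraries 12, 14 and 15 and low in 13 and 16. Mt2 did not pass without day 0 library 12 (edgeR adjusted p = 0.055), day 0 library 14 (edgeR adjusted p = 0.056), day 0 library 15 (edgeR adjusted p = 0.056) or day 0 library 16 (edgeR adjusted p = 0.053), nor without day 3 libraries 12 and 14 (edgeR adjusted p = 0.073).

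Most tested matrix genes rose at day 3. The list has 36 members, of which 35 had the higher mean at day 3. In 16 every day 3 library lay above every day 0 library, against 4.48% of the 20257 genes with counts. Without a filter on low counts 27 of the 36 rose and 1 fell, against 6.96% and 4.88% of all genes. Of 31 tested 19 rose, with a median of 1.29, and none fell with edgeR, DESeq2 or limma-voom, while 1 was lower at an unadjusted p under 0.05. Of the tested members 16 rose without day 3 library 12, and 13 rose and 1, Col5a3, fell without day 3 libraries 12 and 14. The summed level was 2557, 2876, 2648, 2691 and 2477 CPM at day 0 and 3855, 2911, 4311, 3622 and 3183 CPM at day 3. Libraries 12 and 14, which held the muscle transcripts and the highest mesothelial sums, were the highest, and the part of those tissues was not tested.

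Among the matrix genes that rose were 4 whose proteins act in the basement membrane, the thin sheet of matrix under cell layers, and they were grouped here after their values were seen. Col4a1, a chain of type IV collagen (chromosome 8, 11198423 to 11312826, minus strand), read 45.2, 46.5, 37.6, 36.4 and 35.9 CPM at day 0 and 138, 105, 105, 87.0 and 122 CPM at day 3 (log2 fold change 1.46 ± 0.12, edgeR adjusted p = 6.2e-09), and its partner Col4a2 went from 30.7 ± 6.59 to 72.2 ± 10.9 CPM (log2 fold change 1.22 ± 0.14, edgeR adjusted p = 1.0e-06). Lamc1, a laminin chain, went from 13.0 ± 2.55 to 29.5 ± 5.94 CPM (log2 fold change 1.17 ± 0.17, edgeR adjusted p = 2.2e-05). Loxl2, which crosslinks collagen IV, read 1.29, 2.19, 3.92, 2.25 and 1.34 CPM at day 0 and 16.7, 12.0, 17.1, 9.09 and 15.5 CPM at day 3 (log2 fold change 2.69 ± 0.31, edgeR adjusted p = 8.5e-07). In these 4 genes every day 3 library lay above day 0, and without day 3 libraries 12 and 14 the log2 fold changes of Col4a1 and Loxl2 were 1.36 and 2.47.

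Fibrillar collagen was uneven. Col1a1, a chain of type I collagen, read 6.04, 13.9, 10.98, 8.32 and 4.70 CPM at day 0 and 93.2, 25.001, 127, 35.2 and 16.8 CPM at day 3 (log2 fold change 2.76 ± 0.66, edgeR adjusted p = 0.021). Libraries 12 and 14 were the highest, and without them the log2 fold change was 1.56 (edgeR adjusted p = 0.0020). Col1a1 did not pass without day 0 library 12 (edgeR adjusted p = 0.055), day 0 library 15 (edgeR adjusted p = 0.053) or day 0 library 16 (edgeR adjusted p = 0.051). Acta2, the actin of smooth muscle and myofibroblasts, read 3.08, 4.63, 0.784, 0.674 and 1.68 CPM at day 0 and 23.1, 12.0, 9.93, 1.82 and 3.70 CPM at day 3 and did not pass (2.17 ± 0.73, edgeR adjusted p = 0.072). Vim, the intermediate filament of mesenchymal cells, read 10.9, 11.7, 13.6, 14.4 and 4.37 CPM at day 0 and 50.01, 23.2, 44.1, 34.5 and 40.0 CPM at day 3 (log2 fold change 1.78 ± 0.25, edgeR adjusted p = 0.00013) without overlap. Of 16 tested markers of stellate cells, the collagen-making cells of liver, 5 rose, Rgs5, Pdgfrb, Pdgfra and Ngfr among them, and Ecm1 fell, with a median of 0.33, and 2 rose without day 3 libraries 12 and 14. Without day 0 library 12 or 16 or day 3 library 15, 3 rose, Pdgfrb and Ngfr having lost the call. Pdgfrb did not pass without any 1 of 5 libraries (day 0 libraries 12 and 16 and day 3 libraries 12, 15 and 16, edgeR adjusted p = 0.085 to 0.12), and Ngfr without any 1 of 7 libraries (day 0 libraries 12, 14, 15 and 16 and day 3 libraries 12, 14 and 15, edgeR adjusted p = 0.066 to 0.15). Ecm1, a secreted matrix protein, fell from 71.6 ± 19.9 to 35.1 ± 8.39 CPM (log2 fold change -1.03 ± 0.19, edgeR adjusted p = 0.0023).

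**Figure D5:**
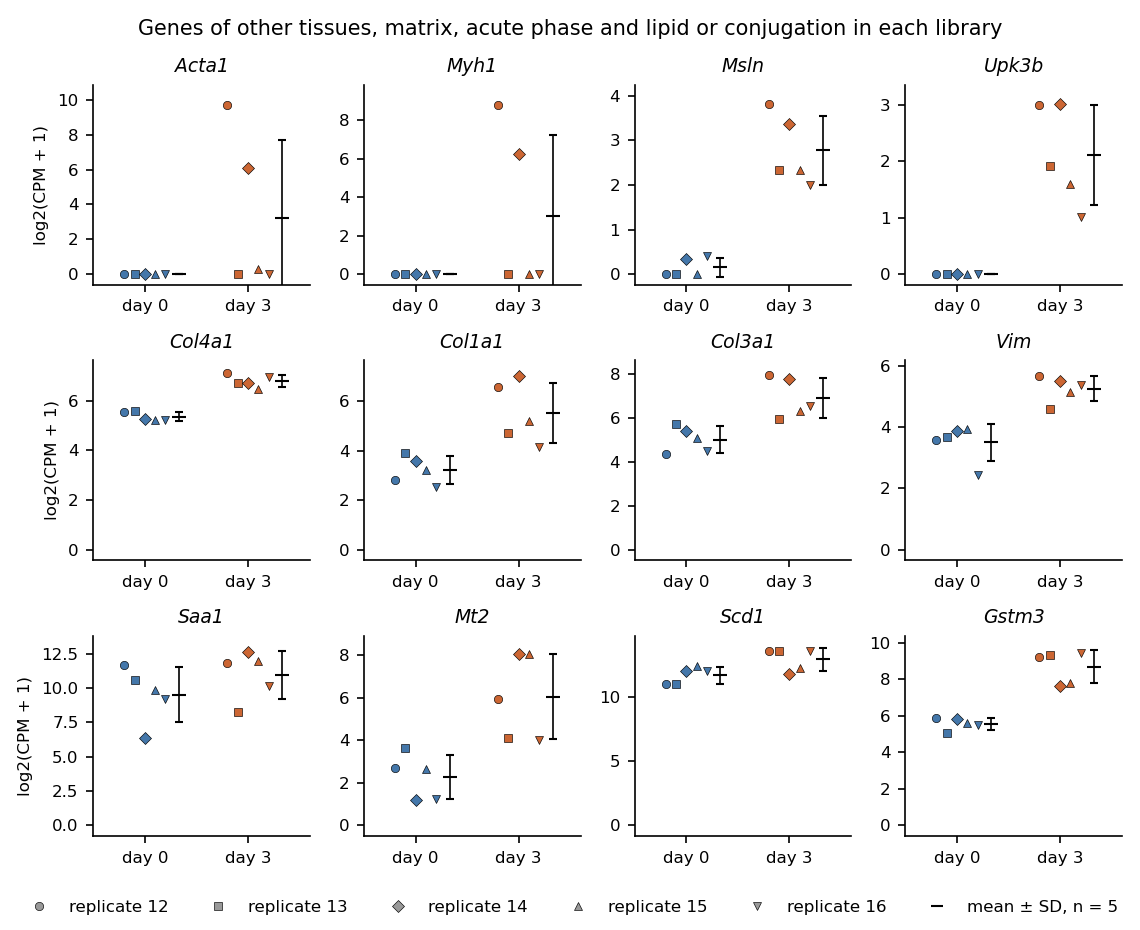
Level of 12 genes in each of the 10 libraries, as log2(CPM + 1), with mean ± SD per day (n = 5), where SD bars that reach below the axis are cut. Acta1 and Myh1 stand out in day 3 libraries 12 and 14 alone, Col4a1 and Vim are separated by day, and Scd1 and Gstm3 are higher in day 3 libraries 12, 13 and 16 than in 14 and 15.

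Markers of Kupffer cells, the resident macrophages of liver, were called at shares near those of all genes. Of 14 tested, Marco rose and Slc40a1 fell (7.14% each, against 9.73% and 8.01% of all genes). Marco, a scavenger receptor, read 6.94, 9.74, 5.49, 9.89 and 3.69 CPM at day 0 and 37.3, 30.6, 76.6, 96.8 and 68.3 CPM at day 3 (log2 fold change 3.08 ± 0.40, edgeR adjusted p = 0.00076), above day 0 in all 5 day 3 libraries. Slc40a1, the iron exporter, fell (-0.49 ± 0.14) and did not pass without day 0 library 13 (edgeR adjusted p = 0.059), day 0 library 15 (edgeR adjusted p = 0.059), day 3 library 12 (edgeR adjusted p = 0.063), day 3 library 13 (edgeR adjusted p = 0.062), day 3 library 14 (edgeR adjusted p = 0.062) or day 3 library 15 (edgeR adjusted p = 0.062). The general macrophage marker Cd68 did not pass (0.48 ± 0.26). The list of monocyte and infiltrating macrophage markers has 22 members, of which 10 were tested. Of these 4 rose and 1 fell, with a median of 0.47, and 2 rose without day 3 libraries 12 and 14. Without 1 library 2 to 5 rose. The summed level of this list was 619 to 764 CPM at day 0 and 860 to 1094 CPM at day 3. Ccl9, a chemokine of myeloid cells, read 57.1, 43.8, 46.5, 49.0 and 49.0 CPM at day 0 and 116, 122, 124, 144 and 128 CPM at day 3 (log2 fold change 1.37 ± 0.10, edgeR adjusted p = 8.9e-10), with each day tight. Cd74, the invariant chain of MHC class II, read 50.4, 55.0, 41.3, 36.2 and 48.4 CPM at day 0 and 19.9, 15.6, 24.5, 20.5 and 14.5 CPM at day 3 (log2 fold change -1.28 ± 0.15, edgeR adjusted p = 1.7e-06), lower in every day 3 library, and H2-Aa and H2-Ab1, the class II chains themselves, fell by 1.14 and 1.02 on the log2 scale.

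Of 20 tested markers of liver endothelium 6 fell and none rose with edgeR, DESeq2 or limma-voom or at an unadjusted p under 0.05, and the median of -0.12 became 0.01 with total counts as the scale. Kdr, the VEGF receptor of sinusoids, read 32.8, 32.4, 40.5, 43.4 and 40.6 CPM at day 0 and 25.8, 17.9, 19.9, 21.1 and 20.5 CPM at day 3 (log2 fold change -0.84 ± 0.14, edgeR adjusted p = 0.00012), and Vegfa, its ligand, went from 150.4 ± 17.4 to 97.2 ± 10.5 CPM (log2 fold change -0.63 ± 0.10, edgeR adjusted p = 6.7e-05). Neither overlapped between days, while Pecam1 (0.05 ± 0.21) and Stab2 (-0.29 ± 0.17), chosen after their values were seen, did not pass. The summed level of T and NK cell markers was 3.40 to 9.64 CPM at day 0 and 2.02 to 7.76 CPM at day 3, with Ncr1 at 0. Neutrophil markers summed to 1.01 to 3.82 and 4.07 to 16.8 CPM, without overlap but with Ly6g and Mpo at 0. Red blood cell transcripts summed to 744 to 2005 and 686 to 1875 CPM, so the ranges overlapped. Irf7, an interferon-induced factor, fell from 47.9 ± 10.2 to 26.9 ± 1.05 CPM (log2 fold change -0.84 ± 0.14, edgeR adjusted p = 8.9e-05), and Irf7, Ifit1, Ifit3 and Iigp1 were among the 5 of 24 tested interferon-stimulated genes that fell. Ifit1 did not pass without day 0 library 15 (edgeR adjusted p = 0.050), and Ifit3 without day 3 library 15 (edgeR adjusted p = 0.051). Without day 3 library 15, 3 fell, and 1 without day 3 libraries 12 and 14. The median of -0.08 became 0.06 with total counts as the scale.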

How the data were processed

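Whole liver RNA of 5 day 0 and 5 day 3 samples was analysed, and the 6 other samples of the series were not used. The authors deposited 1 table of raw counts per sample. Reads were aligned to GRCm38 with STAR 2.5.1, per the submitters' processing notes. They were counted over exons of Ensembl release 95 genes with featureCounts 1.6.2 on the reverse strand and without multi-mapping reads, per the file headers, so genes with near-identical copies are undercounted. Gene symbols were matched for 54809 of 54838 identifiers.

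From these counts edgeR 4.0.16 (R 4.3.3) fitted the 10 samples alone, with TMM factors, filterByExpr, a robust quasi-likelihood F test and Benjamini-Hochberg adjustment at 0.05. On simulated counts with 200 genes changed it called 40.3% of 1.5-fold, 67.2% of 2-fold and 98.4% of 4-fold changes. The data gave 1871 calls, so these percentages need not hold for them. Total counts of 2795909 to 8647503 per sample make 3 counts worth 0.386 to 1.01 CPM, and counting intervals and floors cover counting error only. Alternatives, whose effect the closing section gives, included DESeq2 1.42.0, limma-voom (limma 3.58.1), other scalings and filters, a replicate block and leaving out each library. Leaving out both day 3 libraries with muscle transcripts was added after seeing the data.

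Genes were named by rule: a panel of 50, the 10 largest rises and falls with a mean of at least 5 CPM and no overlap, the members of each of 64 lists with the smallest adjusted p, and every called member where 5 or fewer were called in a direction. Not every gene that the rule allows is printed, and some are not reported here. The comparison, the lists and the panel were chosen with earlier results of these data known. Promoter sequences came from RefSeq (GRCm38.p6).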

Additional observations from a re-analysis of the deposited data

Results flagged for a closer look

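A sample was marked where its gap to the nearest of the other 4 samples of its day, divided by the range of the day, exceeded 0.71. The measures were total counts and log2(CPM + 1) of the genes examined. Of 570 groups of values 26 were marked, while chance marks about 1 in 20 groups, so their number is not above what chance gives.

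At day 0 the total count was high in library 12 (0.780). In library 15 Ccnb1 (1.0), Cdkn3 (0.765), Uhrf1 (0.754) and Apoa4 (0.793) were high and Eif6 was low (0.842). In library 13 Pnpla2 (0.717) and Eef1a1 (0.766) were high and Cyp27a1 (0.816), Gnmt (0.915) and Ifit3 (0.829) were low. In library 16 Vim (0.758), Cd68 (0.806) and Tmpo (0.729) were low and Cyp2d10 was high (0.757). In library 12 Elovl3 was high (0.742), and in library 14 Baat was low (0.720).

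At day 3 library 15 was low for Igfbp2 (0.828), Hamp (0.778), Gm4956 (0.735) and Hamp2 (0.732). Library 12 was low for Met (0.75) and Ces3b (0.731) and high for Hsd17b7 (0.755). Pck1 was low in library 13 (0.743) and Slc40a1 high in library 16 (0.728).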

How the results depend on the processing

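The counts of genes that rose and fell were 1026 and 845. With a change of at least 2-fold required they were 419 and 162, with an adjusted p under 0.01 they were 610 and 480, and with total counts as the scale they were 1596 and 446. DESeq2 gave 1122 and 873, limma-voom 1025 and 807, and other normalizations and filters stayed within 1.5 times, up to 1409 and 988 without a filter on low counts. Without each replicate in turn the counts ran from 886 to 1015 and from 713 to 803. Male-biased genes that fell numbered 26, and 17 by at least 2-fold. Of 253 called genes that the rule allowed the text to name, 158 were called under every alternative run and 95 lost the call under at least 1.

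The day 0 and day 3 samples share replicate numbers, but the labels do not say which came from the same animal, so the samples were fitted unpaired. Deviations of same-numbered samples correlated at 0.054, 0.070 and 0.12 for numbers 12, 15 and 16, whose labels match exactly. For numbers 13 and 14, whose labels differ between the days, the values were -0.016 and -0.051. Numbers 15 and 16 matched best in both days, and number 12 for its day 3 sample alone. These values do not decide whether the samples are paired. With a replicate block 1034 genes rose and 830 fell. A block over the 3 pairs whose labels match exactly gave 867 and 633. Of the 253 called genes that could be named, 62 lost the call there, Arrdc3, Ccnd1, Hamp, Gstm3, Socs2 and Elovl3 among them.

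Reversals occurred only in genes that did not pass. Over the fits that each left out 1 library the log2 fold change ran from -0.066 to 0.27 for Pck1, -0.19 to 0.12 for Srebf1, -0.15 to 0.18 for Plin2, -0.19 to 0.26 for Lpin1 and -0.032 to 0.096 for Met. The block over 3 pairs gave reversed values for Pck1 (-0.011), Srebf1 (0.19), Fads2 (0.077), Plin2 (0.092), Lpin1 (-0.088) and Met (-0.12). Total counts as the scale did so for Srebf1 (0.054), Pnpla2 (0.034) and Plin2 (0.077), leaving out day 3 libraries 12 and 14 for Plin2 (0.058) and Lpin1 (-0.052), and Met turned to -0.0061 with limma-voom, -0.011 without a filter and -0.0025 with upper quartile factors. The cause was not tested. At this depth 40.3% of simulated 1.5-fold changes were called where 200 genes were changed, a share that need not hold for the data. A change that did not pass is not shown to be absent.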

Other observations

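Several gene groups outside the cell cycle and the metabolic lists held called changes. Of 18 tested genes of the circadian clock and its outputs Clock, Npas2, Rora and Usp2 rose and Per3 fell, and the hour of collection is not given in the labels. Rora, a nuclear receptor of the clock, read 40.9, 43.1, 33.5, 35.7 and 35.9 CPM at day 0 and 55.4, 66.6, 47.2, 54.3 and 58.5 CPM at day 3 (log2 fold change 0.57 ± 0.12, edgeR adjusted p = 0.00094), above day 0 in every day 3 library. Without day 0 library 12 or day 3 library 13, 3 clock genes fell, and Per3 did not pass without day 0 library 14 (edgeR adjusted p = 0.10), day 0 library 15 (edgeR adjusted p = 0.14), day 0 library 16 (edgeR adjusted p = 0.074), day 3 library 12 (edgeR adjusted p = 0.10), day 3 library 14 (edgeR adjusted p = 0.068), day 3 library 15 (edgeR adjusted p = 0.10) or day 3 library 16 (edgeR adjusted p = 0.072). Of 15 tested immediate-early factors Fosl2, Klf6, Btg1 and Ier5 rose and Ier2 fell. Ier2 did not pass without any 1 of 7 libraries (day 0 libraries 13, 14 and 15 and day 3 libraries 12, 13, 15 and 16, edgeR adjusted p = 0.063 to 0.11), and 3 factors fell without day 0 library 12. Without day 3 libraries 12 and 14, Btg1 (edgeR adjusted p = 0.066) and Ier2 (edgeR adjusted p = 0.066) did not pass. Fos (0.76 ± 0.60), Jun (1.07 ± 0.36) and Egr1 (0.75 ± 0.43), picked out after their values were seen, did not pass. Klf6, a zinc finger factor of injured liver, went from 6.65 ± 1.90 to 16.6 ± 6.43 CPM (log2 fold change 1.32 ± 0.25, edgeR adjusted p = 0.00048).

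Among 22 tested hepatocyte transcription factors Cebpa, Foxa1 and Xbp1 fell, and none rose with edgeR, DESeq2 or limma-voom. Without 1 library the falls numbered 2 to 6, with 6 without day 0 library 12, and without day 3 libraries 12 and 14 only Cebpa fell. Foxa1 did not pass with limma-voom, and Xbp1 did not pass without any 1 of 5 libraries (day 0 libraries 14, 15 and 16 and day 3 libraries 12 and 16, edgeR adjusted p = 0.057 to 0.062). Cebpa, a factor of resting hepatocytes, read 235, 264, 324, 325 and 222 CPM at day 0 and 166, 221, 186, 159 and 146 CPM at day 3 (log2 fold change -0.64 ± 0.12, edgeR adjusted p = 0.0011), lower in every day 3 library. Hnf4a, which maintains hepatocyte identity, did not pass (-0.02 ± 0.11). Ly6d, a surface protein in the list of fetal and progenitor genes, read 0.514, 2.68, 0, 0 and 1.01 CPM at day 0 and 31.2, 20.7, 16.4, 11.8 and 12.1 CPM at day 3 (log2 fold change 4.50 ± 0.60, edgeR adjusted p = 0.00029), or 5.55 without day 0 library 13. Of 11 tested targets of NRF2, the sensor of oxidative stress, Nqo1, Hmox1, Srxn1 and Ephx1 rose. Without 1 library 1 to 4 rose, with 1, Hmox1, without day 3 library 13 and 2 without day 0 library 12 or 16 or day 3 library 16. Nqo1 did not pass without day 3 library 13 (edgeR adjusted p = 0.057), Srxn1 without any 1 of 6 libraries (day 0 libraries 12, 14 and 16 and day 3 libraries 13, 14 and 16, edgeR adjusted p = 0.054 to 0.079) and Ephx1 without any 1 of 6 libraries (day 0 libraries 12, 13, 15 and 16 and day 3 libraries 13 and 16, edgeR adjusted p = 0.065 to 0.16). Cd9, a membrane protein in the macrophage list, rose from 15.1 ± 4.84 to 38.2 ± 6.06 CPM (log2 fold change 1.33 ± 0.19, edgeR adjusted p = 2.3e-05), and Ccl6, a chemokine there, had a log2 fold change of 0.47 without day 3 libraries 12 and 14 and did not pass (edgeR adjusted p = 0.41).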
